A study of Bos taurus with 9 samples.

Results

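The 46 genes described here encode the route from glucose to the citric acid cycle in bovine oocytes: glucose transporters, the enzymes of glycolysis, the enzymes and carrier of lactate, the mitochondrial pyruvate carrier, the pyruvate dehydrogenase complex with its regulators, and the enzymes of the citric acid cycle. They were taken from a list of symbols. All 46 were found among the 17852 genes of the table, each as 1 gene ID, and 45 had enough reads to be tested. The gene left untested was the muscle isoform of phosphofructokinase, PFKM, with 3, 3 and 3 reads with microplastics and taurine, 10, 0 and 5 with microplastics and 4, 1 and 6 in control libraries. By the place where the protein works, 22 of the genes belong to the cytosolic side, including transporters of the cell membrane, and 24 to the mitochondrion.

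Oocytes at metaphase II, the stage at which an egg awaits fertilization, were compared in 3 groups of 3 RNA libraries each: oocytes given microplastics together with taurine (Tau), oocytes given microplastics alone (MPs) and control oocytes (Con). The type and dose of the microplastics, the dose of taurine, and the number, age and breed of the cows are not given in the labels. No group received taurine alone. Whether replicate libraries stem from different cows or different cultures is not in the labels, so the p-values rest on a spread between samples that may be technical.

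Glycolysis splits glucose in the cytosol into pyruvate, which lactate dehydrogenase can exchange with lactate or which the mitochondrial pyruvate carrier brings to the pyruvate dehydrogenase complex. That complex makes acetyl-CoA, and citrate synthase joins it to oxaloacetate to begin the citric acid cycle. Mammalian oocytes are known to use little glucose by glycolysis themselves and to oxidize pyruvate and lactate, much of it supplied by the cumulus cells around them.

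Libraries held 21.17 to 22.74 M estimated reads, so that 3 reads, the limit that a count of 0 allows, amount to 0.106 to 0.164 CPM (read counts scaled per library) after TMM scaling. That scaling sets the middle of the expressed genes equal between libraries, with factors of 0.841 to 0.958 in Tau, 1.21 to 1.25 in MPs and 0.836 to 0.972 in Con. Scaled by library size alone, the median log2 change of all genes was 0.52 for MPs over Con, against 0.04 with TMM, and -0.45 for Tau over MPs, against -0.02. The 12 oocyte markers summed to 85450 to 112000 CPM in Tau, 40990 to 49080 in MPs and 92990 to 122000 in Con, and 9 of the 12 passed the test between MPs and Con, 2 higher and 7 lower. Cumulus and granulosa markers, 19 of 20 of them in the table and none at 0 in every library, summed to 524 to 572 CPM in Tau, 425 to 525 in MPs and 514 to 619 in Con. Of the 14 tested, 0 rose and 5 fell in MPs over Con, 35.7% called beside 24.3% of all genes. For Tau over MPs 4 were higher and 0 lower, 28.6% beside 14.3%. Leukocyte markers summed to at most 8.88 CPM in any library and endothelial and stromal markers to at most 26.2, while erythroid markers summed to 17.3 to 23.9 CPM in Tau, 10.6 to 17.7 in MPs and 31.1 to 67.2 in Con. The part of these differences in the results was not tested. In bulk samples fewer cells of a type and less RNA per cell cannot be told apart. Control 3 correlated at 0.976 with both taurine 1 and taurine 2, against 0.962 and 0.964 with control 1 and control 2, and taurine 3 correlated best with control 2 at 0.977, against 0.951 and 0.962 with taurine 1 and taurine 2. In these correlations both libraries stood nearer to the other group than to their own, and whether the labels were exchanged was not tested. Each call of a gene named here that changed without these 2 libraries is given with its value.

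Levels of the 46 genes are given in TPM, a deposited unit that corrects for transcript length and is relative to each library's own total, without TMM scaling. Citrate synthase, CS, was the most abundant in every group, at 1280 ± 226 TPM in Tau, 812 ± 332 in MPs and 1536 ± 245 in Con (SD, n = 3 each), and ranked 90 among all genes in Con. It took 60.5%, 52.6% and 58.7% of the reads of the 46 genes in the Tau libraries, 50.1%, 38.95% and 28.01% in MPs and 63.2%, 68.0% and 62.3% in Con. No MPs library reached the lowest Tau or Con library in this share. Lactate dehydrogenase A, LDHA, followed in the order of Con means at 305, 404 and 259 TPM in Tau, MPs and Con, then the pyruvate carrier subunit MPC1 at 207, 337 and 178 and the pyruvate dehydrogenase kinase PDK3 at 178, 261 and 174. In Tau and Con the spread of LDHA overlapped that of MPC1, and the spread of MPC1 that of PDK3. At the low end stood hexokinase 2, pyruvate carboxylase (PC), the mitochondrial isocitrate dehydrogenase IDH2 and the 3 phosphofructokinases, all with a mean under or about 1 TPM in each group. Of the phosphofructokinases, PFKP had the highest mean in MPs, 0.203 ± 0.055 TPM, and no library gave any of the 3 more than 0.46 TPM.

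**Figure D1:**
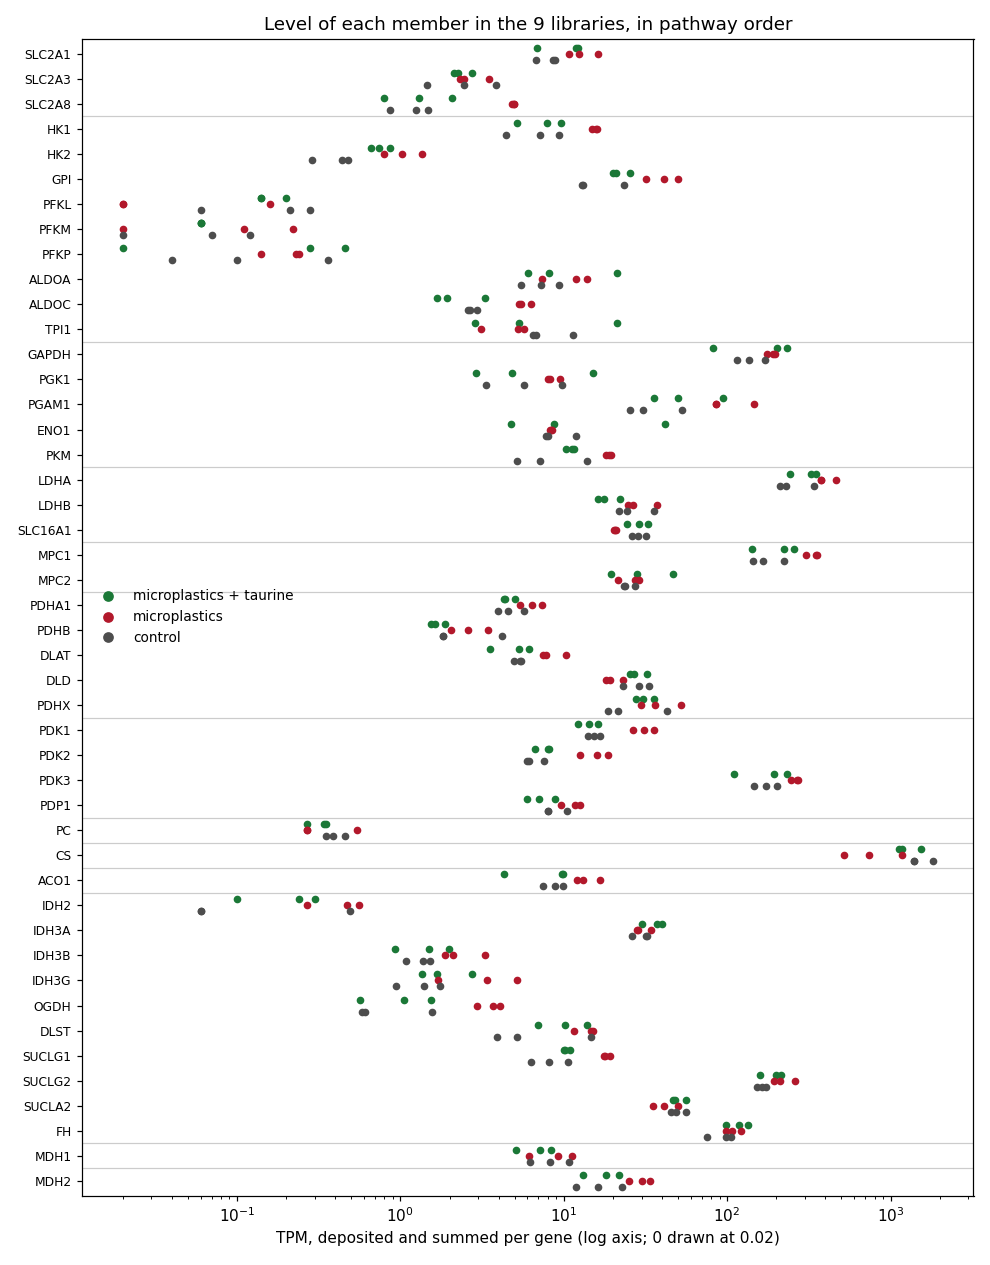
Level of the 46 genes in each of the 9 libraries, in TPM on a log axis and in pathway order (values of 0 are drawn at 0.02; green Tau, red MPs, grey Con; each point is 1 library). CS lies between 522 and 1819 TPM and the phosphofructokinases PFKL, PFKM and PFKP lie under 0.5 TPM.

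MPs oocytes were set against Con oocytes for the effect of microplastics. Genes that rose were a transporter of glucose inside cells (SLC2A8), 2 enzymes of glycolysis (GPI and PGAM1), a kinase that switches off pyruvate dehydrogenase (PDK2) and the first subunit of 2-oxoglutarate dehydrogenase (OGDH). Genes that fell were the monocarboxylate transporter SLC16A1, the shared dihydrolipoamide dehydrogenase DLD, CS, a subunit of NAD-dependent isocitrate dehydrogenase (IDH3A) and the ATP-forming succinyl-CoA ligase subunit SUCLA2. In counts, 10 of the 45 tested genes (22.2%) passed an adjusted p of 0.05 in edgeR's quasi-likelihood test, 5 higher and 5 lower, beside 24.3% of all 13190 genes tested, 9.67% higher and 14.7% lower. The share was close to the background. MPs and Con libraries did not overlap for 9 genes with MPs higher and 11 with MPs lower, beside 22.4% and 22.5% of all genes. The count was 6 without control 1, 4 without control 2, 6 without microplastics 1 or microplastics 2 and 5 without microplastics 3. All genes called in these runs were 1715, 1892, 1876, 2059 and 1751, in that order, against 3211 with all libraries. Without control 3 and taurine 3 the count was 17 (7 higher and 10 lower), beside 5110 of all genes (2613 higher and 2497 lower). Scaled by library size alone the count was 15, of which 12 were higher and 3 lower, beside 4875 of all genes, 4000 higher and 875 lower. There HK1 (1.03), HK2 (1.26), ALDOC (0.93), PKM (0.99), MPC1 (0.79), PDK1 (0.89) and SUCLG1 (0.99) were added as higher, and IDH3A and SUCLA2 were lost.

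Tau oocytes were set against MPs oocytes for the effect of added taurine. SLC16A1, DLD, CS, IDH3A, SUCLA2 and fumarase (FH) were higher in Tau than in MPs, and SLC2A8, OGDH and the pyruvate dehydrogenase kinase PDK1 were lower. That made 9 of 45 genes (20.0%), 6 higher and 3 lower, beside 14.3% of all genes, 10.1% higher and 4.13% lower. Of the 10 genes called between MPs and Con, 7 were also called between Tau and MPs, all 7 with the opposite sign, while GPI, PGAM1 and PDK2 were not called. Tau and MPs libraries did not overlap for 7 genes in each direction, beside 18.7% (higher) and 17.4% (lower) of all genes. The comparisons share the MPs libraries, so opposite signs are no independent result. The count was 3 without microplastics 1, 2 without microplastics 2, 4 without microplastics 3 and 4 without taurine 3. All genes called were 888 without microplastics 1, against 1883 with all libraries. Over the 9 left-out libraries they ran from 888 to 2146, and the count among the 45 from 2 to 11. With library size alone the count among the 45 was again 9, but 2 were higher and 7 lower, beside 3089 of all genes, 601 higher and 2488 lower. There HK1 (-0.94), GPI (-0.78), ALDOC (-1.20) and PDK2 (-0.95) were added as lower and CS, IDH3A, SUCLA2 and FH were lost.

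Between Tau and Con none of the 45 genes was called by edgeR or by DESeq2, beside 1 gene of all 13190 (0.00758%) by edgeR and 5 by DESeq2. Tau and Con libraries did not overlap for 1 of the 45 genes with Tau higher and 3 with Tau lower, beside 4.58% and 4.56% of all genes. At an unadjusted p under 0.05 there was 1 of the 45, LDHB, and 750 of all genes. Without control 3 and taurine 3, with 2 libraries in each group, 783 genes were called, and 3 of the 45 among them: PGK1 at -1.22 on the log2 scale (adjusted p = 0.0460), PGAM1 at 1.14 (adjusted p = 0.0487) and DLST at 1.20 (adjusted p = 0.0241).

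**Figure D2:**
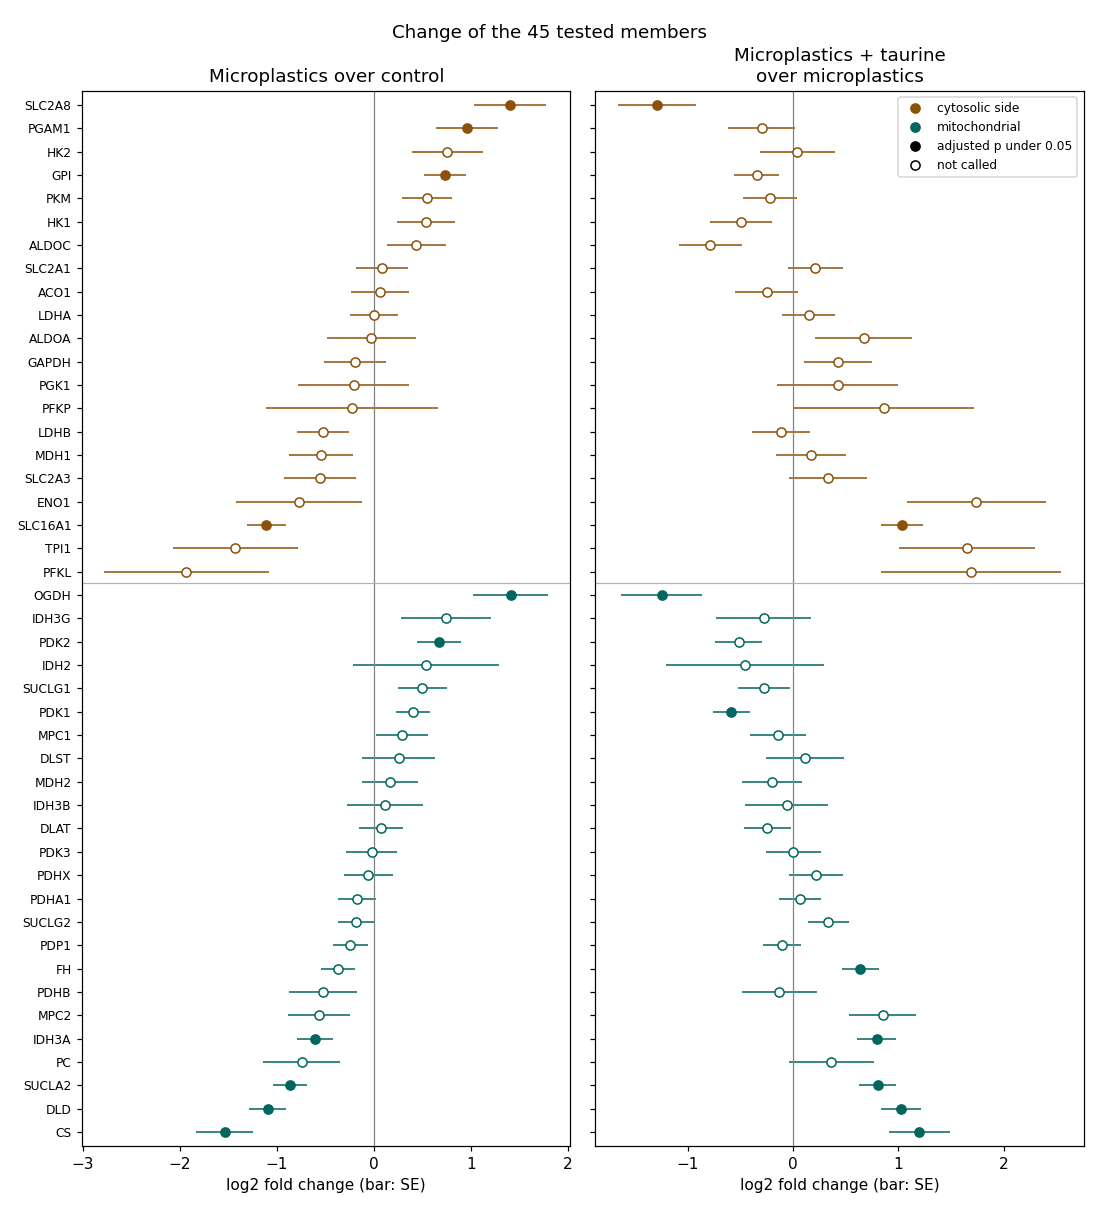
Fitted log2 fold change (x axis, bar: SE) of the 45 tested genes for MPs over Con (left) and Tau over MPs (right), cytosolic side above and mitochondrial below; filled points passed an adjusted p of 0.05. On the cytosolic side 4 genes are filled at left and 2 at right, and among the mitochondrial genes 6 at left and 7 at right.

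The cytosolic and mitochondrial genes were set side by side. Of 21 tested cytosolic genes 3 rose and 1 fell in MPs over Con (19% called), with a median log2 change of -0.03. Of 24 mitochondrial genes 2 rose and 4 fell (25% called), with a median of -0.04. Among all genes 24.3% were called, with a median of 0.04. For Tau over MPs, 1 cytosolic gene was higher and 1 lower (9.52% called), with a median of 0.17. There 5 mitochondrial genes were higher and 2 lower (29.2% called), with a median of -0.03. Of all genes 14.3% were called in Tau over MPs, with a median of -0.02. For Tau over Con the medians were 0.21 for the cytosolic and 0.07 for the mitochondrial genes, beside 0.02 for all genes, and without control 3 and taurine 3 they were -0.25 and -0.17. In summed TPM the cytosolic genes held 543, 758 and 816 in the Tau libraries, 844, 847 and 1028 in MPs and 629, 582 and 553 in Con. The mitochondrial genes other than CS held 743, 1015 and 1103 TPM in Tau, 1180, 1211 and 1312 in MPs and 770, 919 and 861 in Con. On this scale, which is not TMM-scaled, each MPs library was above all Con and Tau libraries in both sums. With CS the mitochondrial sum overlapped between all groups, at 1921, 2137 and 2642 TPM in Tau, 2354, 1951 and 1834 in MPs and 2168, 2739 and 2251 in Con. Across genes, which are not independent replicates, the log2 change of MPs over Con correlated with log10 transcript length at a Pearson r of 0.26 over all tested genes and of 0.02 over the 45.

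Glucose enters cells through facilitative transporters. SLC2A1, the widespread transporter of the cell membrane, had 14.7, 26.9 and 29.00 CPM in Tau, 16.6, 20.04 and 24.2 in MPs and 17.6, 21.99 and 17.97 in Con. The groups overlapped, and its log2 change was 0.08 ± 0.27 (SE) for MPs over Con. SLC2A8, a transporter kept largely on membranes inside the cell, had 2.19, 3.52 and 1.48 CPM in Tau, 5.73, 6.23 and 5.74 in MPs and 2.94, 2.38 and 1.38 in Con. Every MPs library lay above every other library. In log2, the change was 1.40 ± 0.37 for MPs over Con (adjusted p = 0.0181) and -1.30 ± 0.37 for Tau over MPs (adjusted p = 0.0360). For MPs over Con SLC2A8 lost its call without control 2 (1.45), microplastics 2 (1.38) or microplastics 3 (1.44), and for Tau over MPs without microplastics 1 (-1.33), microplastics 2 (-1.27), microplastics 3 (-1.33), taurine 1 (-1.23) or taurine 3 (-1.05), and with transcripts tested one by one (-1.30). SLC2A3, a high-affinity transporter, was not called, at -0.56 ± 0.37 for MPs over Con, and was called without control 3 (-0.88), also with taurine 3 left out as well (-0.88).

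In upper glycolysis, from glucose to the triose phosphates, 1 of 8 tested genes (12.5%) was called in MPs over Con, beside 24.3% of all genes. For Tau over MPs 0 were called, beside 14.3% of all genes. GPI, the isomerase that turns glucose 6-phosphate into fructose 6-phosphate, had 34.0, 43.96 and 39.8 CPM in Tau, 49.9, 40.9 and 58.8 in MPs and 26.7, 25.4 and 37.99 in Con. MPs and Con did not overlap, whereas Tau overlapped MPs. Its log2 change was 0.73 ± 0.21 for MPs over Con (adjusted p = 0.0282) and -0.35 ± 0.21 for Tau over MPs (adjusted p = 0.305). GPI lost its call in the first of these without control 1 (0.65), control 2 (0.62), microplastics 1 (0.75) or microplastics 3 (0.61). HK1, the main hexokinase transcript here and the enzyme that traps glucose by phosphorylation, had 16.4, 31.03 and 28.2 CPM in Tau, 36.5, 35.5 and 34.7 in MPs and 35.5, 16.3 and 21.8 in Con. The MPs libraries were close to each other and control 1 stood among them, and the log2 change of 0.54 ± 0.30 for MPs over Con did not pass (adjusted p = 0.202). In the RefSeq gene table HK1 overlaps HKDC1, and no label or header says whether reads were counted by strand. The other tested genes of this section, HK2, PFKL, PFKP, ALDOA, ALDOC and TPI1, ranged from -1.93 (PFKL, with 1 to 15 reads a library) to 0.75 (HK2) on the log2 scale for MPs over Con. TPI1, triose phosphate isomerase, was at -1.43 ± 0.64 (adjusted p = 0.126). It was called at the same log2 change without taurine 3 (adjusted p = 0.0132) and in the fit of only the 2 groups (adjusted p = 0.0134), and at -1.62 without control 3 and taurine 3. PFKL was called without microplastics 2 (-3.51), and ALDOC was called in Tau over MPs without taurine 1 (-1.09).

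In lower glycolysis, which recovers ATP, 1 of 5 genes (20%) was called in MPs over Con, beside 24.3% of all genes. For Tau over MPs 0 were called, beside 14.3% of all genes. PGAM1, phosphoglycerate mutase, had 129.25, 70.1 and 55.5 CPM in Tau, 84.7, 88.8 and 140.1 in MPs and 41.98, 48.5 and 70.6 in Con. All MPs libraries were above all Con libraries, and the Tau libraries spread across both ranges. Its fitted log2 change was 0.96 ± 0.32 for MPs over Con (adjusted p = 0.0478), close to the threshold. That PGAM1 call was lost on leaving out control 1 (0.81), control 2 (0.89), taurine 2 (0.96) or any of microplastics 1 (1.11), 2 (1.08) and 3 (0.71), and was kept under 7 of the 10 alternative analyses. GAPDH, which makes NADH in glycolysis, had 80.3, 230.5 and 221.1 CPM in Tau, 122.8, 139.6 and 133.3 in MPs and 133.9, 192.6 and 127.7 in Con. Taurine 1 was the lowest of the 9 libraries and taurine 2 and 3 the highest, and its log2 change was -0.20 ± 0.32 for MPs over Con and 0.43 ± 0.32 for Tau over MPs, the second called without taurine 1 (0.78). PKM, pyruvate kinase, had 21.8, 24.2 and 27.6 CPM in Tau, 28.7, 28.7 and 28.6 in MPs and 13.1, 17.5 and 28.3 in Con. Control 3 was close to the MPs libraries, and the log2 change was 0.54 ± 0.26 for MPs over Con (adjusted p = 0.143), against 0.92 with a call without control 3, alone or with taurine 3. Mammalian GAPDH, LDHA, PGAM1, ENO1 and PGK1 are known to have near-identical processed copies. No source read here says how reads shared with such copies were assigned, so their counts are uncertain in that respect.

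Aldolase ALDOA, TPI1, the phosphoglycerate kinase PGK1 and the enolase ENO1 were high in taurine 3. They are named because of their values in that library. ENO1 had 12.8, 7.14 and 68.7 CPM in Tau, 8.75, 9.13 and 8.61 in MPs and 13.8, 20.1 and 11.3 in Con. TPI1 had 5.18, 2.85 and 23.3 CPM in Tau, 4.00, 3.84 and 2.09 in MPs and 7.90, 12.7 and 6.10 in Con. PGK1 had 4.33, 7.29 and 25.4 CPM in Tau, 10.04, 8.95 and 8.54 in MPs and 10.2, 16.9 and 4.77 in Con. ALDOA had 7.70, 10.6 and 30.5 CPM in Tau, 12.8, 11.4 and 6.52 in MPs and 8.44, 13.9 and 8.91 in Con. Taurine 3 was the highest of the 9 libraries for all 4 genes and over 2-fold above both other Tau libraries, which was so for 4 of the 45 genes and for 1.91% of all genes. Control 3 stood so above its group for IDH2 and DLST, beside 1.28% of all genes, and the other 7 libraries did so for 0 of the 45. The summed cumulus and granulosa markers were 572 CPM in taurine 3, against 536 and 524 in taurine 1 and 2. The largest part of that sum was STAR, at 319, 302 and 223 CPM in taurine 1, 2 and 3. PTGS2 was lowest in taurine 3 as well, at 24.0, 16.9 and 16.5 CPM in the same order. In contrast TNFAIP6 had 1.05, 1.16 and 33.3 CPM, and INHA 0.713, 0.386 and 9.19. HAS2 had 90.3, 74.8 and 136.6 CPM, SERPINE2 28.8, 42.8 and 55.3 and GJA1 12.3, 23.9 and 29.2, also highest in taurine 3 among the Tau libraries. A high TNFAIP6 was not particular to taurine 3, as control 2 had 66.1 CPM, against 1.03 and 1.53 in control 1 and control 3. Markers thus went in both directions, and not all are named. The part of cumulus and granulosa cells in these values was not tested. None of ALDOA, TPI1, PGK1 and ENO1 was called in any comparison over all 9 libraries. Without taurine 2, TPI1 and ENO1 were called in Tau over MPs, at 2.10 and 2.20. ENO1 was at -0.77 ± 0.65 for MPs over Con, called in the fit of only the 2 groups at that value and at -0.93 without control 3 and taurine 3.

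**Figure D3:**
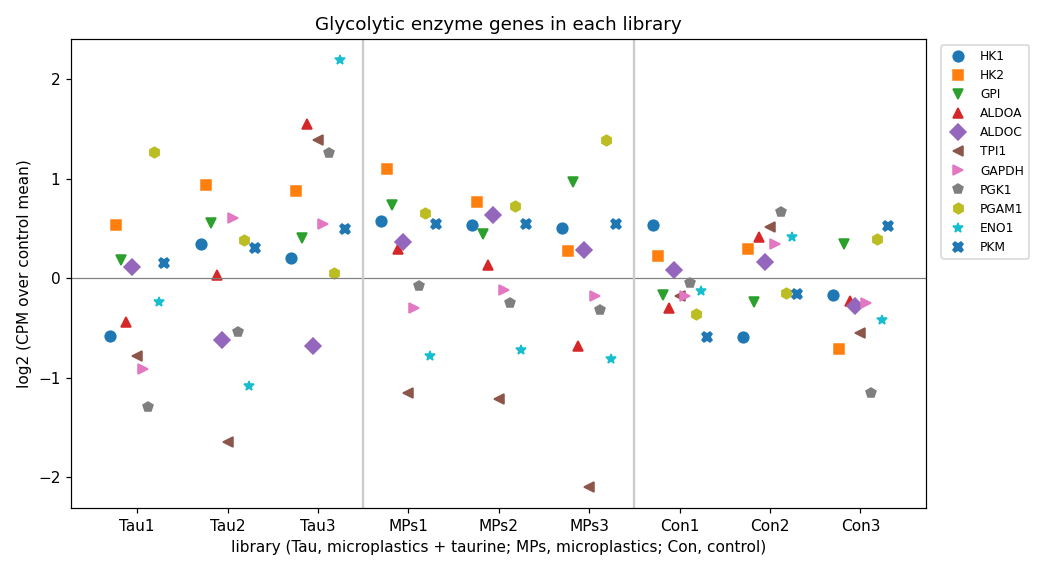
Glycolytic enzyme genes in each library, as log2 of CPM over the control mean; the phosphofructokinases are left out for their low counts. ENO1, ALDOA, TPI1 and PGK1 are above 1 in Tau3, where ENO1 reached 68.7 CPM, and below 1 in the other 8 libraries.

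Lactate is exchanged with pyruvate by lactate dehydrogenase and crosses the cell membrane on monocarboxylate transporters. SLC16A1, the transporter MCT1 of lactate and pyruvate, had 66.7, 80.98 and 101.4 CPM in Tau, 40.4, 41.8 and 39.6 in MPs and 93.8, 100.5 and 69.1 in Con. The MPs libraries were close to each other and below all others. On the log2 scale the change was -1.11 ± 0.20 for MPs over Con (adjusted p = 0.00241) and 1.03 ± 0.20 for Tau over MPs (adjusted p = 0.00550), and both calls held under all 10 alternative analyses and with each of the 9 libraries left out. LDHA, the muscle-type subunit, had 350.3, 480.8 and 569.2 CPM in Tau, 389.7, 409.6 and 465.4 in MPs and 590.6, 382.2 and 295.2 in Con, with wide overlap. LDHB, the heart-type subunit, had 18.6, 17.4 and 26.3 CPM in Tau, 18.8, 21.3 and 27.3 in MPs and 45.6, 26.9 and 24.8 in Con. Control 1 was the highest library for LDHB, and the log2 change was -0.53 ± 0.27 for MPs over Con (adjusted p = 0.174) and -0.64 ± 0.27 for Tau over Con (adjusted p = 0.855). Without control 3 and taurine 3 it was called in MPs over Con (-0.67). LDHB is the sum of 2 transcripts to which the deposited values give equal reads.

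Pyruvate enters the mitochondrion through a carrier of 2 subunits. MPC1 and MPC2 were not called in either comparison over all 9 libraries, MPC1 at 0.29 ± 0.26 and MPC2 at -0.57 ± 0.32 on the log2 scale for MPs over Con, and at -0.14 ± 0.26 and 0.85 ± 0.32 for Tau over MPs. Without taurine 1, MPC2 was called in Tau over MPs (1.122), and without control 3 and taurine 3 it was called in MPs over Con (-0.68). Pyruvate carboxylase, which makes oxaloacetate from pyruvate, was at -0.75 ± 0.40 for MPs over Con (adjusted p = 0.190), with means of 1.18 CPM in Tau, 0.919 in MPs and 1.54 in Con.

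Of the 5 subunits of the pyruvate dehydrogenase complex, DLD alone was called. That is 20% in MPs over Con and in Tau over MPs, beside 24.3% and 14.3% of all genes. DLD is the flavoprotein that re-oxidizes lipoyl groups, and it serves the 2-oxoglutarate dehydrogenase complex and the glycine cleavage system as well. It had 51.9, 49.6 and 70.2 CPM in Tau, 25.2, 27.8 and 31.2 in MPs and 53.5, 64.2 and 62.2 in Con. All MPs libraries were below all others. The log2 change was -1.09 ± 0.19 for MPs over Con (adjusted p = 0.00184) and 1.03 ± 0.19 for Tau over MPs (adjusted p = 0.00398), and both calls held under the same 10 alternatives and 9 left-out libraries. PDHA1, the catalytic subunit that the kinases phosphorylate, had 18.6, 16.2 and 18.2 CPM in Tau, 19.4, 15.04 and 16.3 in MPs and 20.3, 16.8 and 20.2 in Con. Its log2 change was -0.17 ± 0.20 for MPs over Con. PDHB, DLAT and PDHX were between -0.52 and 0.07 for MPs over Con and between -0.24 and 0.22 for Tau over MPs, none called.

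The pyruvate dehydrogenase kinases switch the complex off and the phosphatase PDP1 switches it on. PDK2 had 12.7, 15.8 and 17.3 CPM in Tau, 17.3, 26.99 and 21.3 in MPs and 14.05, 13.1 and 14.01 in Con. MPs and Con did not overlap, and taurine 3 reached the lowest MPs library. In log2, the change was 0.67 ± 0.22 for MPs over Con (adjusted p = 0.0475). PDK2 lost its call without control 1 (0.69), control 2 (0.64), control 3 (0.70), microplastics 2 (0.50), microplastics 3 (0.71) or taurine 2 (0.67), and under 5 of the 10 alternative analyses. PDK1, which is induced by hypoxia-inducible factor in many tissues, had 55.2, 42.1 and 54.4 CPM in Tau, 86.7, 67.7 and 73.3 in MPs and 62.4, 55.7 and 54.4 in Con. All MPs libraries were above all others. Its fitted log2 change was -0.59 ± 0.18 for Tau over MPs (adjusted p = 0.0445) and 0.40 ± 0.18 for MPs over Con (adjusted p = 0.115). PDK1 lost its call for Tau over MPs on leaving out control 1 (-0.58) or 2 (-0.58), microplastics 1 (-0.50), 2 (-0.68) or 3 (-0.63), or taurine 2 (-0.47) or 3 (-0.64), and under 6 of the 10 alternatives. PDK3, the most abundant kinase transcript, was at -0.03 ± 0.26 for MPs over Con, and PDP1 was at -0.25 ± 0.18.

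**Figure D4:**
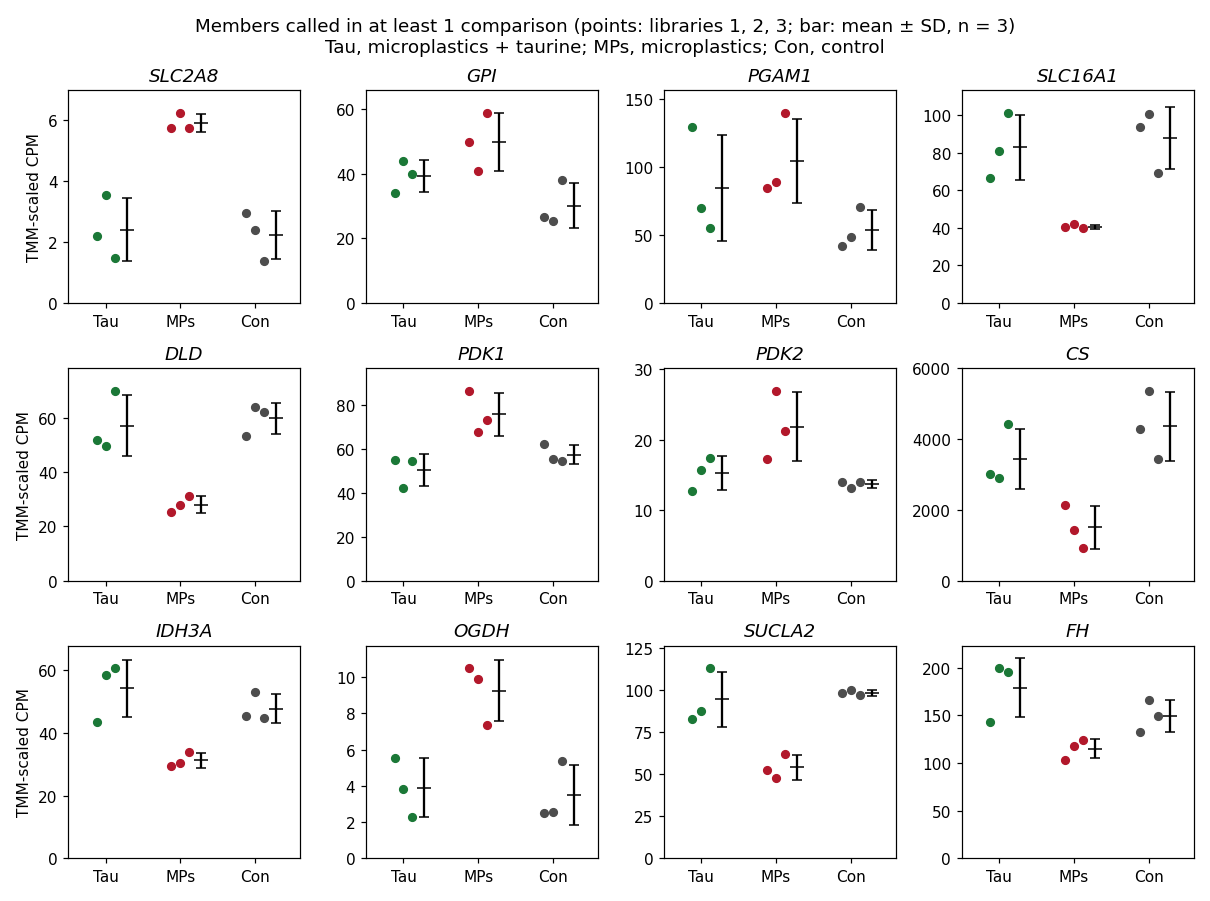
TMM-scaled CPM of the 12 genes called in at least 1 comparison; points are libraries 1, 2 and 3 of each group and bars the mean ± SD (n = 3). MPs libraries lie below all Tau and Con libraries for SLC16A1, DLD, CS, IDH3A, SUCLA2 and FH, and above them for SLC2A8, OGDH and PDK1.

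In the citric acid cycle itself, 4 of 12 genes (33.3%) were called in MPs over Con, 1 higher and 3 lower, beside 24.3% of all genes. In Tau over MPs 5 of 12 (41.7%) were called, 4 higher and 1 lower, beside 14.3% of all genes. CS had 2998, 2905 and 4420 CPM in Tau, 2146, 1424 and 927 in MPs and 4288, 5361 and 3419 in Con. Every MPs library was below every other library, and microplastics 3 was the lowest. CS averaged 3441 ± 849 CPM in Tau, 1499 ± 613 in MPs and 4356 ± 973 in Con (SD, n = 3 each). Its log2 change was -1.54 ± 0.29 for MPs over Con (adjusted p = 0.00327), 2.91-fold lower, and 1.20 ± 0.29 for Tau over MPs (adjusted p = 0.0170). The MPs over Con call held under all 10 alternatives and each left-out library, while the Tau over MPs call was lost without microplastics 2 (1.15), microplastics 3 (0.93) or taurine 3 (0.98), and with library size alone (0.75). The CS gene overlaps IL23A in the RefSeq gene table.

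Isocitrate is oxidized in the mitochondrion by the NAD-dependent enzyme of IDH3A, IDH3B and IDH3G and by the NADP-dependent IDH2. IDH3A, the catalytic subunit, had 43.5, 58.2 and 60.5 CPM in Tau, 29.4, 30.3 and 34.02 in MPs and 45.3, 53.02 and 44.7 in Con. The MPs libraries were below all others. On the log2 scale the change was -0.61 ± 0.18 for MPs over Con (adjusted p = 0.0304) and 0.79 ± 0.18 for Tau over MPs (adjusted p = 0.0134). IDH3A lost its MPs over Con call on leaving out control 1 (-0.65), control 2 (-0.53) or any of microplastics 1 (-0.55), 2 (-0.57) and 3 (-0.66), and with library size alone (-0.12). It lost its Tau over MPs call without microplastics 1 (0.73) or microplastics 2 (0.75), and with library size alone (0.35). Its partner subunits were not called, IDH3B at 0.11 ± 0.39 and IDH3G at 0.74 ± 0.46 for MPs over Con, and their mean levels were at most 3.42 TPM in a group, against 30.1 to 35.8 TPM for IDH3A. IDH2 had 2 to 15 reads a library.

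The 2-oxoglutarate dehydrogenase complex is built from OGDH, DLST and DLD. OGDH, the subunit that decarboxylates 2-oxoglutarate, had 5.56, 3.81 and 2.30 CPM in Tau, 10.5, 9.93 and 7.37 in MPs and 2.505, 2.54 and 5.39 in Con. The MPs libraries were above all others, and control 3 was close to taurine 1. The log2 change was 1.41 ± 0.38 for MPs over Con (adjusted p = 0.0209) and -1.25 ± 0.38 for Tau over MPs (adjusted p = 0.0479). OGDH lost its MPs over Con call without control 1 (1.22), control 2 (1.22), microplastics 1 (1.33) or microplastics 2 (1.37). Its Tau over MPs call was lost without control 2 (-1.24), microplastics 1 (-1.17), microplastics 2 (-1.21), microplastics 3 (-1.40), taurine 2 (-1.23) or taurine 3 (-0.98), and with the length trend removed (-1.05) or transcripts tested one by one (-1.25). DLST, the lipoyl-bearing core subunit, was at 0.25 ± 0.37 for MPs over Con, and 0.91 with a call without control 3, alone or with taurine 3. OGDH was thus higher and DLD lower in MPs over Con within the same complex.

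Succinyl-CoA ligase pairs a common subunit, SUCLG1, with SUCLA2 in its ATP-forming or SUCLG2 in its GTP-forming version. SUCLA2 had 82.9, 87.7 and 113.1 CPM in Tau, 52.5, 47.8 and 62.4 in MPs and 98.2, 100.4 and 97.2 in Con. All MPs libraries were below all others, and the Con libraries were close together. In log2, the change was -0.86 ± 0.18 for MPs over Con (adjusted p = 0.00495), a call kept with each library left out, and 0.80 ± 0.18 for Tau over MPs (adjusted p = 0.0106), a call lost without microplastics 1 (0.76) or microplastics 2 (0.70). With library size alone the values were -0.38 and 0.36, neither called. SUCLG2 was at -0.18 ± 0.19 and SUCLG1 at 0.50 ± 0.25 for MPs over Con, not called, though SUCLG1 was without control 1 (0.80). FH, fumarase, had 143.1, 199.4 and 195.5 CPM in Tau, 103.8, 118.2 and 123.9 in MPs and 133.1, 165.8 and 149.6 in Con. The MPs libraries were below all others for FH too. Its log2 change was 0.64 ± 0.18 for Tau over MPs (adjusted p = 0.0322) and -0.38 ± 0.18 for MPs over Con (adjusted p = 0.138). FH lost its Tau over MPs call without microplastics 1 (0.55), microplastics 2 (0.64), microplastics 3 (0.67), taurine 2 (0.56) or taurine 3 (0.57), without control 3 and taurine 3 together (0.56), with the length trend removed (0.55) and with library size alone (0.20).

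Malate dehydrogenase closes the cycle. MDH2, the mitochondrial enzyme, had 13.2, 22.3 and 20.4 CPM in Tau, 24.2, 19.1 and 20.9 in MPs and 27.6, 13.8 and 15.7 in Con, with overlap of all groups. Its cytosolic counterpart MDH1 was at -0.54 ± 0.33 for MPs over Con and the cytosolic aconitase ACO1, which also binds iron-responsive RNA elements, at 0.06 ± 0.30, neither called.

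Shares within a gene family do not depend on the scaling between libraries, and 7 shares were compared over 3 pairs of groups with an exact two-sided permutation test. With 3 libraries against 3 the exact test cannot go below p = 0.1, and none of the 21 exact tests passed after adjustment (lowest adjusted p = 0.21). LDHB made up 6.77%, 4.71% and 5.95% of lactate dehydrogenase TPM in Tau, 6.20%, 6.65% and 7.44% in MPs and 9.55%, 8.76% and 10.3% in Con. Both treated groups lay below all Con libraries (exact p = 0.1 for each), by 3.73 percentage points in Tau and 2.78 in MPs. With the most abundant transcript of each gene alone, which leaves out 1 of the 2 LDHB transcripts, Tau and MPs were 2.02 and 1.51 points below Con. SUCLA2 made up 20.9% ± 1.55 of the SUCLA2 and SUCLG2 total in Tau, 16.0% ± 1.58 in MPs and 23.6% ± 2.90 in Con (SD, n = 3 each), and MPs overlapped neither of the others (exact p = 0.1 for each). MPC1 made up 87.2% ± 2.20 of the carrier in Tau, 92.8% ± 1.31 in MPs and 87.6% ± 1.54 in Con, and again MPs stood apart (exact p = 0.1 for each). MDH2 made up 72.0% ± 0.40 of malate dehydrogenase in Tau, 77.1% ± 5.25 in MPs and 66.7% ± 1.16 in Con, and no pair of groups overlapped (exact p = 0.1 for each). The shares of HK1, PDK1 and SLC2A1 differed by at most 9.73 percentage points between groups, with exact p values from 0.1 to 1. The phosphofructokinases were left out of these shares because a library held as few as 9 of their reads.

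**Figure D5:**
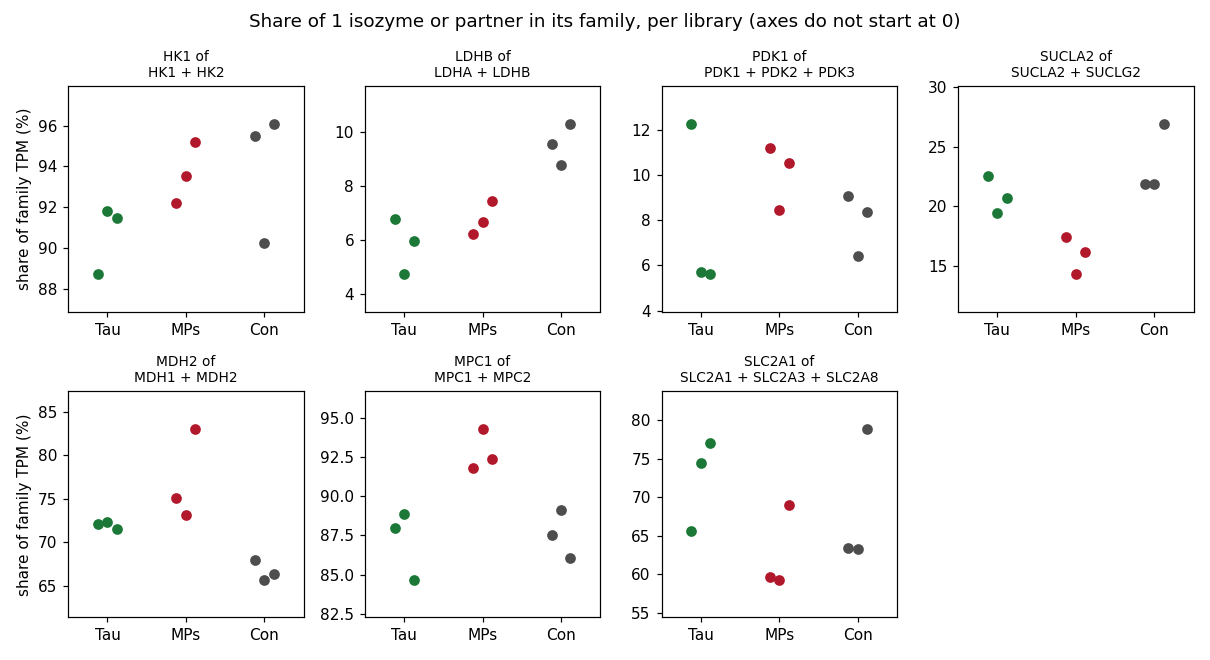
Share of 1 gene in the TPM of its family in each library (percent; axes do not start at 0). The LDHB share is at least 8.76% in Con and at most 7.44% in Tau and MPs, and the SUCLA2 share is at most 17.4% in MPs and at least 19.5% in Tau and Con.

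Ratios within a complex were computed as well, chosen after the values had been seen and without a test. OGDH to DLST was 0.104 ± 0.043 in Tau, 0.264 ± 0.063 in MPs and 0.125 ± 0.023 in Con, as a ratio of TPM (SD, n = 3 each). DLD to PDHA1 was 6.18 ± 1.07 in Tau, 3.22 ± 0.65 in MPs and 6.06 ± 1.14 in Con. SUCLA2 to SUCLG1 was 4.84 ± 0.28 in Tau, 2.30 ± 0.31 in MPs and 6.29 ± 1.80 in Con.

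Other genes of the same pathways came from further gene lists. These lists were chosen with earlier results of these data known, so their changes are no independent result. Of 24 tested genes around pyruvate entry and the citric acid cycle, 1 rose and 5 fell in MPs over Con and 4 were higher and 0 lower in Tau over MPs, 25.0% and 16.7% called beside 24.3% and 14.3% of all genes, so both shares were near the background. LIAS, the synthase that makes the lipoyl groups on which DLD acts, had 82.85, 104.9 and 111.5 CPM in Tau, 28.9, 24.7 and 24.8 in MPs and 114.3, 122.0 and 93.2 in Con. The MPs libraries were close together and far below the others, at -2.07 ± 0.19 on the log2 scale over Con (adjusted p = 3.12e-05), and Tau over MPs was 1.93 ± 0.19 (adjusted p = 9.36e-05). Both LIAS calls held under every alternative run and with each library left out. LIPT2, the transferase that precedes LIAS, averaged 76.9 CPM in Tau, 39.9 in MPs and 97.0 in Con, at -1.28 ± 0.22 for MPs over Con (adjusted p = 0.00185) and 0.95 ± 0.22 for Tau over MPs (adjusted p = 0.0141). LIPT2 lost the second call without microplastics 1 (0.73) or taurine 2 (0.77), and with library size alone (0.52). SLC25A12, an aspartate and glutamate carrier of the malate-aspartate shuttle, was at -1.15 ± 0.29 for MPs over Con (adjusted p = 0.0136) and 1.26 ± 0.29 for Tau over MPs (adjusted p = 0.0129). SLC25A12 lost the first call without microplastics 2 (-1.003) and the second without microplastics 1 (1.26) or microplastics 2 (1.11), and both with library size alone (-0.68 and 0.80). PDK4 had 13, 3 and 28 reads in Tau, 1, 5 and 0 in MPs and 35, 38 and 12 in Con (adjusted p = 0.0109 for MPs over Con, 0.0549 without microplastics 1). In Tau over MPs PDK4 was called by DESeq2 (3.40) and without control 3 (3.26) or taurine 2 (3.78). GLUD1, glutamate dehydrogenase, was at 0.78 ± 0.23 for MPs over Con (adjusted p = 0.0305), a call lost without control 1 (0.58), control 2 (0.71), microplastics 1 (0.76) or microplastics 3 (0.71), and with transcripts tested one by one (0.78). With library size alone GLUD1 was called in Tau over MPs as well (-1.02). IDH1, the cytosolic NADP-dependent isocitrate dehydrogenase, was at 1.06 ± 0.30 for Tau over MPs (adjusted p = 0.0339), lost without microplastics 1 (1.10), microplastics 2 (0.91), microplastics 3 (1.15) or taurine 1 (0.64). The IDH1 call was also lost with library size alone (0.65), with the replicate block (1.04) and with transcripts tested one by one (1.06).

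Of 3 tested genes beside those for lactate, 1 rose and 1 fell in MPs over Con, and 1 was lower in Tau over MPs. These shares, 66.7% and 33.3% beside 24.3% and 14.3% of all genes, rest on 3 genes. BSG, basigin, the chaperone that carries SLC16A1 to the cell membrane, had 23.3, 22.6 and 23.6 CPM in Tau, 45.1, 38.1 and 38.5 in MPs and 22.8, 20.7 and 24.02 in Con. All MPs libraries were above all others, at 0.85 ± 0.17 over Con (adjusted p = 0.00482) and -0.81 ± 0.17 for Tau over MPs (adjusted p = 0.00928), and each call held with every library left out. SLC16A1 to BSG was 1.53 ± 0.30 in Tau, 0.431 ± 0.043 in MPs and 1.69 ± 0.43 in Con as a ratio of TPM. This ratio too was chosen after the values had been seen and was not tested. It restates the opposite changes of the 2 genes and is no further result. LDHC, the lactate dehydrogenase of germ cells, had 141.2, 126.8 and 131.1 CPM in Tau, 78.7, 79.8 and 79.55 in MPs and 235.6, 157.2 and 106.8 in Con. It was at -1.07 ± 0.24 for MPs over Con (adjusted p = 0.00771), kept with every library left out, and at 0.75 ± 0.24 for Tau over MPs (adjusted p = 0.0544). The first was lost with library size alone (-0.56), and the second was called without control 1 (0.75) or control 3 (0.73), without control 3 and taurine 3 together (0.74), in the fit of only the 2 groups (0.73) and by DESeq2 (0.75).

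Of 15 further tested genes of glycolysis and gluconeogenesis, 2 rose and 2 fell in MPs over Con, and 2 were higher and 2 lower in Tau over MPs, 26.7% called in each, beside 24.3% and 14.3% of all genes. PFKFB1, which makes and breaks the activator fructose 2,6-bisphosphate, averaged 43.5 CPM in Tau, 25.8 in MPs and 49.7 in Con, at -0.95 ± 0.16 for MPs over Con (adjusted p = 0.00180) and 0.75 ± 0.16 for Tau over MPs (adjusted p = 0.00949), the second lost without microplastics 2 (0.66) and both with library size alone (-0.46 and 0.32). BPGM, the mutase that makes 2,3-bisphosphoglycerate, stood out in level with 2454, 2276 and 2883 CPM in Tau, 1308, 1608 and 1763 in MPs and 2748, 2265 and 2441 in Con. MPs lay below both others, at -0.67 ± 0.17 over Con (adjusted p = 0.0134), lost without control 1 (-0.59) or microplastics 1 (-0.54). For Tau over MPs BPGM was at 0.70 ± 0.17 (adjusted p = 0.0157), lost without microplastics 1 (0.57), microplastics 2 (0.71) or taurine 3 (0.60). With library size alone BPGM was at -0.19 and 0.26, neither called. HKDC1, a hexokinase-like protein, was at 1.29 ± 0.29 for MPs over Con (adjusted p = 0.00809), kept with every library left out, and with library size alone it was called lower in Tau over MPs (-0.93). The low genes SLC2A6 and PKLR had under 2 CPM in every library and were the lower ones in Tau over MPs. SLC2A6, a transporter of vesicle membranes, was also the other gene that rose in MPs over Con, at 1.41 ± 0.43 (adjusted p = 0.0342), lost without control 1 (1.35), control 2 (1.27) or any of microplastics 1 (1.34), 2 (1.55) and 3 (1.37). That call was also lost with no filter (1.41), the replicate block (1.41) and transcripts tested one by one (1.41). The SLC2A6 call for Tau over MPs, at -1.45 ± 0.43 (adjusted p = 0.0429), was lost with any library left out other than control 3 (-1.24 to -1.65), and without control 3 and taurine 3 together (-1.25). It was lost as well with no filter (-1.46), the replicate block (-1.44) and transcripts tested one by one (-1.46). PKLR, the liver and red cell pyruvate kinase, was at -1.90 ± 0.48 for Tau over MPs (adjusted p = 0.0220), lost without microplastics 1 (-1.68), 2 (-2.03) or 3 (-2.02), taurine 2 (-1.67) or taurine 3 (-1.83), and with transcripts tested one by one (-1.91). With library size alone PKLR was called higher in MPs over Con (1.48). Of 11 tested genes of the pentose phosphate pathway, which branches off at glucose 6-phosphate, 0 were called by edgeR in either comparison. All genes had 24.3% and 14.3% called. At an unadjusted p under 0.05 there were 3 and 1 of the 11, beside 5031 and 3826 of all 13190 genes.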

How the data were processed

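Per the labels' protocols, TRIzol was used to extract total RNA of metaphase II oocytes, and BGI's usual protocol to prepare libraries. The sources used here do not give the aligner, counter, build or annotation. The deposited table has 22590 transcript rows with estimated counts, which are not normalized, and with FPKM and TPM made by the authors. A deposited scaled signal (rounded counts times 1 factor per library) and the authors' means were not used. Estimated counts were summed per gene and rounded. Symbols came from a RefSeq gene table of the ARS-UCD2.0 assembly, which named 16995 of 17852 genes (95.2%).

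Genes were tested with edgeR 4.0.16 in R 4.3.3 (quasi-likelihood test, robust, TMM, the filterByExpr filter, which asks for a CPM equal to 10 reads in a library of median size in 3 libraries and for 15 reads in total, 1 coefficient per group over 9 libraries, Benjamini-Hochberg over all 13190 genes). Each log2 change has its SE, each mean its SD, and CPM are TMM-scaled. A filter on low counts keeps a gene that is high in 1 group only. TPM, summed per gene, gave levels, shares and ratios. FPKM gave the implied transcript length. The method was tested on simulated data. Limits from a count of 0 cover counting error only.

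The members and gene lists were chosen with earlier results of these data known. Values in every library are given for called members (up to 8 per direction and comparison) and for GAPDH, LDHA, LDHB, HK1, PFKM, PKM, PDHA1, PDK1, CS, IDH3A, MDH2, SLC2A1 and SLC16A1, and other list genes are named if called, up to 4 per list and direction by smallest p. Alternatives were DESeq2 1.42.0 size factors, library size only, no filter, at least 5 CPM in 3 libraries, DESeq2's Wald test and a fit of the 2 groups compared. Further ones were a replicate block, control 3 and taurine 3 left out, a length trend removed, transcripts one by one, and each library left out. The length trend was a lowess curve, given to edgeR as an offset.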

Additional observations from a re-analysis of the deposited data

How the results depend on the processing

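Calls of SLC16A1, DLD, LIAS and BSG in both treated comparisons, and of CS in MPs over Con, held under every alternative run and each left-out library. Counts moved with scaling, since library size alone gave 4875 called genes for MPs over Con (4000 higher, 875 lower) and 3089 for Tau over MPs (601 higher, 2488 lower). It set the cytosolic and mitochondrial medians at 0.46 and 0.43 for MPs over Con and at -0.27 and -0.49 for Tau over MPs. Without control 3 and taurine 3, 5110 genes and 17 members were called for MPs over Con, and 783 genes and 3 members for Tau over Con, with medians of -0.25 and -0.17. Removing the length trend moved the mitochondrial median for MPs over Con to -0.14. For Tau over Con all genes called were 5 by DESeq2, 4 by transcripts, and 0 with the 5 CPM filter, only the 2 groups, or the block. Leaving out 1 library gave 1715 to 4151 genes and 4 to 12 members for MPs over Con, 888 to 2146 genes and 2 to 11 members for Tau over MPs, and 0 to 2 genes for Tau over Con, whose cytosolic median ranged from -0.20 to 0.31. Isozyme shares that changed sign were HK1 in MPs over Con (-2.15 to 0.77 points) and, in Tau over Con, PDK1 (-2.29 to 1.04) and MPC1 (-1.25 to 0.84).

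Whether replicate numbers pair the samples is not known. Same-numbered libraries correlated at -0.44 to 0.26 in their deviations from group means, and 1 of 9 libraries correlated best with its own number. With 3 libraries a group these values cannot show that pairing is absent. The replicate block gave 7 members for both MPs over Con and Tau over MPs: it lost PGAM1 (0.95), PDK2 (0.65) and OGDH (1.39) in the first and PDK1 (-0.59) and OGDH (-1.26) in the second.

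The log2 changes that turned their sign belong to genes not called in that comparison, and apart from the alternatives' construction the cause was not tested. With library size alone, for MPs over Con PFKP was 0.20, ALDOA 0.46, GAPDH 0.29, PGK1 0.31, LDHA 0.50, PDHA1 0.31, PDHX 0.40, PDK3 0.46, PDP1 0.23, SUCLG2 0.31 and FH 0.10, and for Tau over MPs SLC2A1 was -0.23, SLC2A3 -0.11, HK2 -0.39, GAPDH -0.021, PGK1 -0.071, LDHA -0.30, PDHA1 -0.37, PDHX -0.22, PDK3 -0.46, PC -0.069, DLST -0.31, SUCLG2 -0.11 and MDH1 -0.27. With no filter, for MPs over Con LDHA was 0.0012, and for Tau over MPs PDK3 was -0.0056. With the 5 CPM filter, for MPs over Con ALDOA was 0.027, LDHA 0.044 and PDK3 0.025, and for Tau over MPs PDK3 was -0.057. With the replicate block, for MPs over Con PFKP was 0.059, ALDOA 0.028 and LDHA 0.0016, and for Tau over MPs PDK3 was -0.052. Without control 3 and taurine 3, for MPs over Con PFKP was 0.80 and PDHX 0.28, and for Tau over MPs HK2 was -0.013, ALDOA -0.17, PGK1 -0.67, LDHA -0.033 and PDK3 -0.32. With the length trend removed, for MPs over Con SLC2A1 was -0.028, ALDOA 0.040, LDHA 0.010, DLAT -0.16 and ACO1 -0.15, and for Tau over MPs PDK3 was -0.057, PDP1 0.10 and MDH1 -0.0064. In the fit of only the 2 groups, for Tau over MPs PDK3 was -0.015. With transcripts tested one by one, for Tau over MPs PDK3 was -0.0028. With 1 library left out, MPs over Con values ran over -0.19 to 0.32 for LDHA, -0.032 to 0.91 for DLST, -0.20 to 0.23 for ALDOA, -0.29 to 0.010 for GAPDH, -0.55 to 0.29 for PGK1, -0.10 to 0.13 for PDK3, -0.043 to 0.17 for ACO1, -0.019 to 0.53 for MDH2, -0.65 to 0.80 for PFKP, -0.27 to 0.28 for PDHX, -0.062 to 0.17 for DLAT, -0.082 to 0.28 for IDH3B and -0.052 to 0.22 for SLC2A1. With 1 library left out, Tau over MPs values ran over -0.30 to 0.28 for PDK3, -0.42 to 0.21 for IDH3B, -0.69 to 0.11 for IDH3G, -0.032 to 0.15 for PDHA1, -0.17 to 0.23 for HK2, -0.32 to 0.031 for LDHB, -0.29 to 0.035 for PDHB, -0.074 to 0.37 for MDH1, -0.39 to 0.086 for MPC1, -0.51 to 0.068 for ACO1, -0.14 to 0.30 for DLST, -0.16 to 1.008 for ALDOA, -0.66 to 0.83 for PGK1 and -0.019 to 0.32 for LDHA.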
